A study of Mus musculus with 9 samples.

Results

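The 10 genes described here encode ligands of receptors carried by natural killer (NK) cells: Raet1d, Raet1e, Ulbp1, H60b, Pvr, Nectin1, Nectin2, Nectin3, Icam1 and Clec2d. They were chosen by name, with earlier results of these data known, and were matched by symbol to 10 of the 54838 gene identifiers in the table. All 10 had counts and all 10 passed the filter on low counts, which left 13153 genes. Their messenger RNA was measured in PDA530 Met, a mouse pancreatic ductal adenocarcinoma line, also written PDA50 Met in one of the sources and treated here as the same line. It was derived from a metastasis that a male KPC animal of mixed 129/SvJae/C57Bl/6 strain carried in the liver. KPC mice develop this cancer from engineered driver mutations. RNA-seq libraries came from untreated cultures in 3 groups of 3. The knockout group was clone E4, a single-cell clone in which Zdhhc20, the gene of a palmitoyltransferase, had been targeted with CRISPR/Cas9. The control group was clone C5, a single-cell clone that received the same guide RNAs by nucleofection, stayed unedited and still expresses Zdhhc20. Parental cells are the uncloned line, with no edit. Each clone group holds 1 clone, so the effect of the edit and a difference between clones cannot be told apart here, and an adjusted p measures only the spread between cultures of a clone.

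NK cells read a target cell through a balance of activating and inhibitory receptors. The activating receptor NKG2D (gene Klrk1) binds Raet1, H60 and Ulbp1 (also called MULT1) proteins, distant relatives of MHC class I that many tumour and stressed cells carry. Cd226 (DNAM) is an activating receptor for Pvr and Nectin2, and the inhibitory receptor Tigit and the receptor Cd96 compete for the same family of nectins. Icam1 binds the integrin LFA on the NK cell and holds the contact between the cells together. Clec2d (Clr-b) is recognised by the inhibitory receptor Klrb1b and marks healthy cells as self.

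The libraries held 16525869 to 23192701 counts. Zdhhc20 was at 37.5, 33.9 and 42.5 CPM (counts scaled to a common library total) in the knockout libraries against 123, 85.8 and 120 CPM in control libraries and 75.3, 81.2 and 90.7 CPM in parental libraries, so the edited clone held less of its RNA than both other groups (adjusted p 6.97e-05 and 0.000585), though it was still present. Krt8 and Krt18, keratins of simple epithelia, averaged 1323 and 1699 CPM in the knockout clone and more in the other groups, while the epithelial marker Epcam was near absent at means of 0.610, 0.150 and 0.198 CPM in the knockout, control and parental cells. Markers of other cell types were at low levels apart from Cd14. Of 8 leukocyte markers, 4, 3 and 4 had no count in these groups, and nearly all of the list's summed level (17.4 to 19.1, 23.5 to 39.5 and 46.2 to 53.3 CPM) was Cd14. Of 8 fibroblast markers, 6, 5 and 5 had no count, and the summed level was 0.818 to 1.67, 1.31 to 2.89 and 3.12 to 4.0 CPM. Control replicates 2 and 3 stood furthest apart among libraries of 1 group, with a correlation of log2 CPM of 0.9637, and members on which they differ are named below.

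The regions upstream of 3 members are shown because results below turn on these genes. Among members with an upstream sequence, only Icam1 held the motifs marked below. Raet1d and Raet1e are near copies of each other that were measured with shared reads. The sequences are RefSeq's, on build GRCm38.p6, and 7 of the 10 members had an entry in that table. The Icam1 and Raet1e sequences end at the transcription start, and the Raet1d sequence, trimmed to align with Raet1e, ends 2 bases before it. Raet1e has 2 entries in the table, and the one that aligns with Raet1d is shown; the other is a different upstream region. In Icam1 the capitals mark a match to GGAANTTCC, the core of sites for NF-kappaB factors, and one to TTCNNNGAA, the site of STAT factors. In the Raet1 pair the capitals mark the bases that differ.
Icam1, chr9:21015690-21015939, plus strand: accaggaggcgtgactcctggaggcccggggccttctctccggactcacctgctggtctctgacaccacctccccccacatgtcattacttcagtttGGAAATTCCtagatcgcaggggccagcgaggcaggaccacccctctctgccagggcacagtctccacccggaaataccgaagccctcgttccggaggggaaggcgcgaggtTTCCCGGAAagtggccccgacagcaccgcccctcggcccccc
Raet1d, chr10:22361644-22361891, plus strand: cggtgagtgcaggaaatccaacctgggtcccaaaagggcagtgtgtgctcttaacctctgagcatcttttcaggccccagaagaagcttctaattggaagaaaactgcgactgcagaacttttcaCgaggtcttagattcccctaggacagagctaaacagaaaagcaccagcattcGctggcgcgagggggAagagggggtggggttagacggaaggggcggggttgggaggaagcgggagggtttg
Raet1e, chr10:22173249-22173496, plus strand: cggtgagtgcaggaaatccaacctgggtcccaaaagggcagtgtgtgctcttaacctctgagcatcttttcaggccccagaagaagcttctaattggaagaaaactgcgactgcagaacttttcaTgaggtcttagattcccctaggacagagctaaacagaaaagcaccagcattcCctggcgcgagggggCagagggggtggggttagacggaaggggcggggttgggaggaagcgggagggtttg
The Icam1 core starts at position -153 from the transcription start and the STAT-type site at position -42. GGAANTTCC occurs in 0.813% and TTCNNNGAA in 7.02% of the 32851 upstream regions in the table, both strands being searched over 250 bases. Among the members with an entry, only Icam1 held either, and none matched the full NF-kappaB consensus, which 7.25% of all regions held. Other motifs that were searched are not marked in the sequences. Of these, the heat shock letters GAANNTTC occurred in Raet1d (-168), in this Raet1e entry (-166) and in 6.69% of all regions. The 248 aligned bases of Raet1d and of this Raet1e entry differ at 3 positions and are 98.8% identical. These matches describe letters only, and binding was not measured.

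Of the 10 ligand genes, 6 were called between the knockout and the control clone at an adjusted p under 0.05 (edgeR quasi-likelihood test, Benjamini-Hochberg adjustment over all tested genes). In this comparison 42.9% of all tested genes were called, 18.7% higher and 24.2% lower, so many genes moved besides the ligands. Ulbp1 was higher, and Raet1e, Nectin1, Nectin2, Icam1 and Clec2d were lower. The members' median log2 fold change was -0.44, and that of all tested genes was -0.02. Against the parental cells 6 members were called as well, beside 31.4% of all genes (13.1% higher and 18.3% lower). Here Ulbp1 and Pvr were higher and Raet1e, Nectin1, Icam1 and Clec2d lower, with a median of -0.31 against -0.01 for all genes. Both comparisons share the knockout libraries. Ulbp1 was the 1 member called higher against both groups, as were 8.19% of all genes, and 4 members were lower against both, as were 13.4% of all genes. Between control clone and parental cells 3 members were called, against 21.4% of all genes: Nectin2 was higher (10.4% of all genes were) and Raet1e and Nectin1 were lower (11.0% of all genes were). Raet1d, H60b and Nectin3 were called in none of the 3 comparisons.

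**Figure D1:**
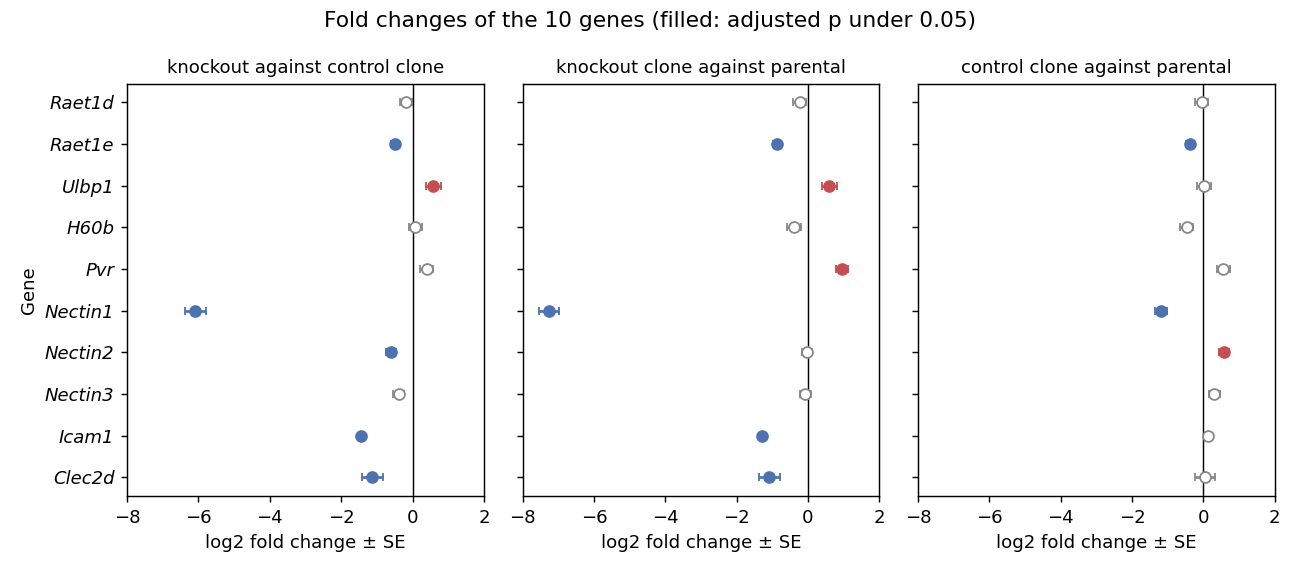
Log2 fold changes of the 10 ligand genes with their standard errors in the comparisons of the 3 groups. Filled symbols are called at an adjusted p under 0.05, red for higher and blue for lower, and open grey symbols are not called. Nectin1 lies far below the others at -6.09 and -7.26 in the comparisons with the knockout clone.

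Among the ligands of NKG2D, Ulbp1 rose in the knockout clone while Raet1e fell. Ulbp1 (ENSMUSG00000079685, chr10:7440362-7473638, minus strand) was at 119.1, 140.0 and 120.9 CPM in knockout libraries. It was at 93.1, 105.8 and 54.4 CPM in control libraries and at 90.7, 82.4 and 77.3 CPM in parental libraries. Every knockout library was above every other library, and the control libraries were spread widely, replicate 3 being the lowest of all. Ulbp1 differed by a log2 fold change of 0.59 (SE 0.20, adjusted p 0.0424) versus the control clone and 0.60 (SE 0.20, adjusted p 0.0489) versus the parental cells. Both calls were close to the threshold. The first was lost in 8 of 17 alternatives, when the third group was left out of the fit and without any 1 knockout or parental library or control replicate 1 (adjusted p up to 0.114). The second was lost in 9 of 17, with total counts or limma voom and without the same libraries (adjusted p up to 0.148). Without control replicate 3 the difference from the control clone was smaller, at 0.35 (adjusted p 0.0209). The direction held in all of these.

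Raet1e (ENSMUSG00000053219, chr10:22158569-22374139, plus strand) encodes a RAE-type ligand. It was at 12.5, 14.7 and 14.5 CPM in knockout libraries, at 20.3, 17.4 and 21.1 CPM in control libraries and at 23.9, 24.6 and 27.2 CPM in parental libraries. The groups did not overlap, and the order was knockout, control, parental from low to high. Raet1e differed by a log2 fold change of -0.49 (SE 0.11, adjusted p 0.00677) versus the control clone and -0.86 (SE 0.11, adjusted p 0.000572) versus the parental cells, called in all 18 alternatives for each. The difference between control clone and parental cells, -0.36 (SE 0.11, adjusted p 0.045), lost its call in 13 of 18 alternatives, including a fit with the replicate number as a block (adjusted p 0.057) and any 1 library left out except control replicate 3.

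Raet1d (ENSMUSG00000078452, chr10:22360552-22374139, plus strand), the other RAE-type ligand measured, was at 10.7, 12.9 and 11.6 CPM in knockout libraries. It was at 15.8, 14.6 and 9.45 CPM in control libraries and at 14.5, 13.7 and 13.0 CPM in parental libraries. The knockout libraries were just below the parental ones, and control replicate 3 was below all of them. No difference was called (log2 fold change -0.18 ± 0.18 SE, adjusted p 0.438, and -0.23 ± 0.18 SE, adjusted p 0.365), but without control replicate 3 the first became -0.38 (adjusted p 0.0223), and without control replicate 1 it became -0.03 (adjusted p 0.909). Raet1d and Raet1e cannot be fully separated. Their coding sequences are 95.8% identical, their annotated exons share 363 bases, and 55.8% of the 50-base stretches of Raet1d also occur in Raet1e. The authors' counting divides reads between such copies by an estimate. The counts of both genes were therefore also summed into 1 feature, a step chosen after seeing the data. The sum was 23.2, 27.6 and 26.2 CPM in knockout libraries, 36.2, 31.9 and 30.5 CPM in control libraries and 38.4, 38.3 and 40.2 CPM in parental libraries, lowest in the knockout clone without overlap. The fitted log2 difference was -0.36 (SE 0.10, adjusted p 0.0148) and -0.60 (SE 0.10, adjusted p 0.00163). Between control clone and parental cells it was -0.24 (SE 0.10) and was not called (adjusted p 0.102).

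H60b (ENSMUSG00000075297, chr10:22158586-22288849, plus strand), a member of the H60 branch, was the lowest of the 4 NKG2D ligands among the members. It was at 5.13, 3.78 and 4.15 CPM in knockout libraries, at 4.89, 3.45 and 3.99 CPM in control libraries and at 5.59, 6.37 and 5.18 CPM in parental libraries. The clones overlapped and the parental libraries were above both. H60b differed by 0.08 (SE 0.19, adjusted p 0.76) versus the control clone and -0.39 (SE 0.19, adjusted p 0.145) versus the parental cells, and that of the control clone against the parental cells was -0.47 (SE 0.19, adjusted p 0.106). It shares 133 exon bases with Raet1e on the same strand. From the rest of the family, H60c was tested and was below 1.2 CPM in every library, with no call. Raet1a, Raet1b, Raet1c and H60a were matched to no identifier and were not analysed here. In a line of mixed strain, reads of such copies could have been assigned to Raet1d, Raet1e or H60b, which was not tested.

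The sum of the 4 NKG2D ligand genes depended on the scale. In CPM it was 147.4, 171.4 and 151.2 for knockout libraries, 134.2, 141.2 and 88.9 for control libraries and 134.7, 127.0 and 122.6 for parental libraries, every knockout library being above all others. This sum is weighted to Ulbp1, whose exons are the longest. Per exon length the groups overlapped: the sum was 35.1, 39.7 and 36.2 CPM per kb in the knockout libraries, 38.3, 36.7 and 27.7 CPM per kb in the control libraries and 39.2, 38.4 and 37.4 CPM per kb in the parental libraries. Ulbp1 made up 50.4%, 52.5% and 49.7% of this sum in the knockout libraries. Its share was 36.2%, 42.8% and 29.2% in the control libraries and 34.4%, 31.9% and 30.7% in the parental libraries, all below the knockout libraries. An exact permutation test of 3 against 3 cannot go below p = 0.1, and none was run on these shares.

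**Figure D2:**
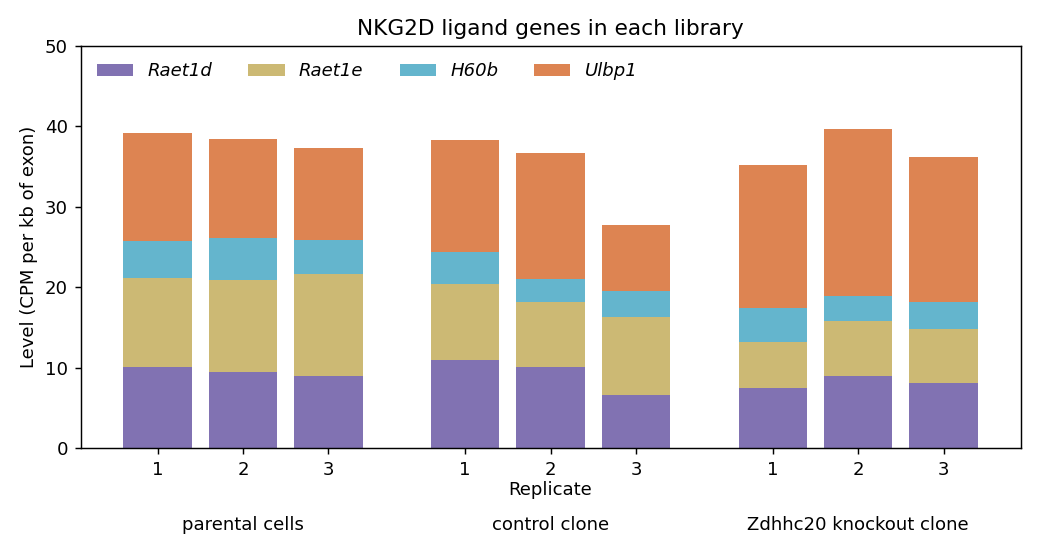
Level of the 4 ligands of NKG2D in each library, in CPM per kb of exon, stacked, with 3 libraries per group. The stacks are of similar height apart from control replicate 3 at 27.7 CPM per kb, and the Ulbp1 layer is thickest in the knockout libraries.

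Of the nectin family, the strongest change was in Nectin1. Pvr was called higher than in the parental cells alone, and Nectin2 was called lower than in the control clone alone. Nectin1 (ENSMUSG00000032012, chr9:43743984-43807461, plus strand) encodes an adhesion protein of epithelial junctions that Cd96 binds in mice. It had 1, 4 and 1 counts in the knockout libraries (0.0488, 0.223 and 0.0584 CPM). The control libraries held 189, 121 and 150 counts (8.25, 7.20 and 7.87 CPM) and the parental libraries 389, 298 and 282 counts (18.7, 17.6 and 16.6 CPM). The gene was thus close to silent in the knockout clone, and in the control clone every library was below every parental library. Relative to depth, the control clone held 72.5 times as many Nectin1 counts as the knockout clone (95% exact interval 33.1 to 199) and the parental cells 164 times as many (75.1 to 448), intervals that cover counting error only. On the log2 scale these differences were -6.09 (SE 0.30, adjusted p 1.72e-06) in the fit against clone C5 and -7.26 (SE 0.29, adjusted p 5.67e-07) against the uncloned line. The control clone was itself lower than the parental cells by -1.18 (SE 0.17, adjusted p 0.00163). All 3 calls held in all 17 alternatives. Of the 6 knockout counts 4 were in knockout replicate 2, and without that library the knockout differences were -7.01 and -8.20.

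Genes beside Nectin1 were lower in the knockout clone too. The 5 tested genes on either side had a median log2 fold change of -1.45 against the control clone, where all 10 were called lower, and of -1.21 against the parental cells, where 7 were. Trim29, the nearest tested gene before it, had 2 counts in the knockout clone against 344 in the control clone (163 times as many relative to depth, 95% exact interval 44.7 to 1350, adjusted p 7.88e-05) and 146 in the parental cells (74.1 times, 20.2 to 618, adjusted p 0.000422). Nlrx1 had 3 counts against 63 (19.9 times, 6.49 to 98.9, adjusted p 0.00649) and 90 (30.5 times, 10.1 to 151, adjusted p 0.00378). Within 1.5 Mb on either side, 33 of 38 other tested genes were called lower against the control clone and 28 against the parental cells, with none called higher. The median of chromosome 9 was shifted too. Over its 748 tested genes it was -0.53 against the control clone and -0.53 against the parental cells. Between control clone and parental cells it was -0.02. Against the control clone 53.5% of its genes were called lower, and 59 genes higher. Against the parental cells 54.3% were called lower, and 20 genes higher. Of all tested genes 24.2% and 18.3% were called lower in these comparisons. On chromosome 9, 7 genes including Nectin1 were at least as low as Nectin1 in both comparisons, 0.936% of the chromosome. DNA was not analysed here, and the part of the chromosome-wide shift in the Nectin1 result was not tested.

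**Figure D3:**
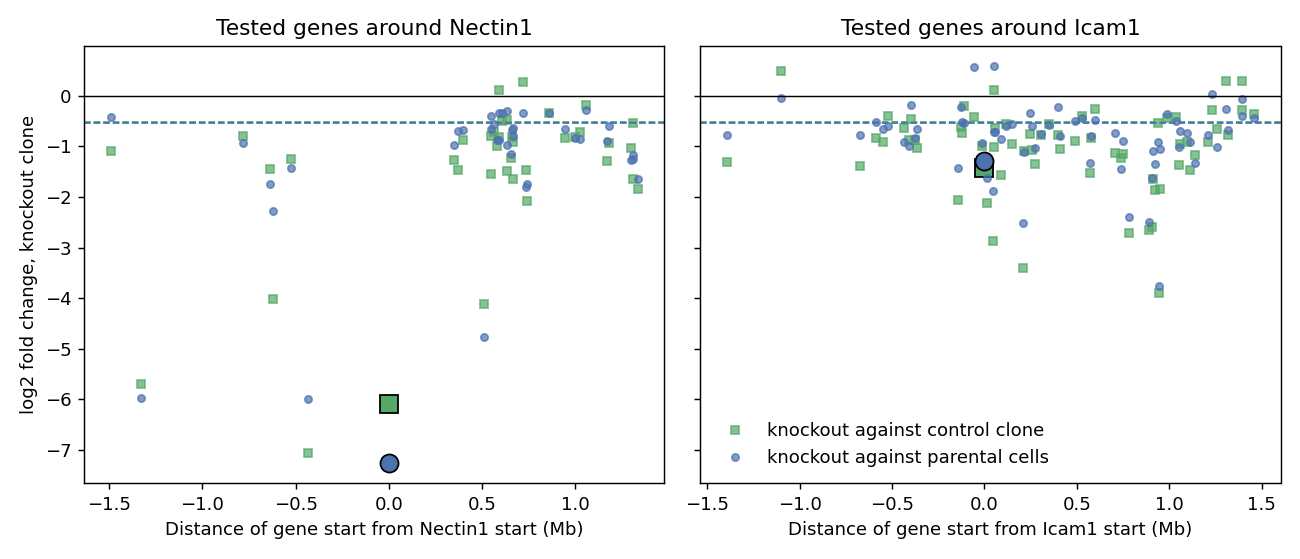
Log2 fold changes of the knockout clone against the control clone and against the parental cells for the tested genes around Nectin1 and around Icam1, plotted by distance between gene starts in Mb, with Nectin1 and Icam1 as large outlined symbols. Dashed lines are the medians of chromosome 9 (-0.53 in each comparison, nearly on top of each other). Most neighbours lie below 0, and Nectin1 is, with a few neighbours such as Trim29, far below the other genes of its window.

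Pvr (ENSMUSG00000040511, chr7:19903578-19921160, minus strand), the shared ligand of Cd226, Tigit and Cd96, was at 61.7, 59.3 and 58.0 CPM in knockout libraries. It was at 35.1, 61.3 and 39.8 CPM in control libraries and at 32.3, 31.1 and 29.1 CPM in parental libraries. The knockout libraries were above the parental ones by a fitted fold of 1.93, while control replicate 2 was as high as the knockout libraries and the other control libraries were not. The log2 difference was 0.95 (SE 0.18, adjusted p 0.00352) versus the parental cells, called in all 17 alternatives. Against the control clone it was 0.40 (SE 0.18) and was not called (adjusted p 0.0949). Without control replicate 2 that difference was 0.68 and was called (adjusted p 0.00015), and without control replicate 1 it was 0.24 (adjusted p 0.281). Control clone and parental cells differed in Pvr by 0.56 (SE 0.18, adjusted p 0.0528), which was not called but passed in 6 of 17 alternatives: without a filter, with a minimum mean of 5 CPM, with DESeq2, and without any 1 control library. Without control replicate 2 it was 0.28 (adjusted p 0.0358).

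Nectin2 (ENSMUSG00000062300, chr7:19716644-19750483, minus strand), the other ligand of Cd226, was highest in the control clone. It was at 94.0, 76.3 and 85.2 CPM in knockout libraries, at 125.6, 106.7 and 154.3 CPM in control libraries and at 79.0, 84.3 and 95.9 CPM in parental libraries. The knockout and parental libraries overlapped and every control library lay above both. Nectin2 differed by a log2 fold change of -0.60 (SE 0.14, adjusted p 0.00746) versus the control clone and -0.02 (SE 0.14, adjusted p 0.93) versus the parental cells. The control clone differed from the parental cells by 0.58 (SE 0.14, adjusted p 0.0183), a call lost without parental replicate 1 (adjusted p 0.0877) or replicate 2 (adjusted p 0.078). An antisense gene, Gm20512, shares 135 exon bases with Nectin2. The strand setting of the counting is not given in the sources used here, so reads within those bases cannot be told apart. Pvr and Nectin2 lie close together on chromosome 7. The 5 tested genes on either side of Pvr had a median of -0.62 against the control clone (7 of 10 called lower, none higher) and -0.36 against the parental cells (4 lower, 3 higher), while Pvr itself had positive values. Of all tested genes 24.2% and 18.3% were called lower in these comparisons. The genes beside Pvr span chr7:19716644-24127952 and so reach far past Pvr. Those beside Nectin2 span chr7:19606217-19921160 and had medians of -0.22 and -0.11. For control clone versus parental cells the medians were 0.45 beside Pvr and 0.44 beside Nectin2, with -0.01 for the chromosome. These sets share genes, and each holds the other member. The part of such shifts in either result was not tested.

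Nectin3 (ENSMUSG00000022656, chr16:46387706-46498525, minus strand), an adhesion partner of Nectin1 and Nectin2, was at 60.1, 60.2 and 57.5 CPM in knockout libraries. It was at 78.0, 97.1 and 57.0 CPM in control libraries and at 62.2, 65.0 and 60.4 CPM in parental libraries. Control replicates 1 and 2 were high and replicate 3 was not. The log2 fold change of -0.38 (SE 0.16, adjusted p 0.0755) versus the control clone was not called, and became -0.56 (adjusted p 0.00124) without control replicate 3 but -0.19 (adjusted p 0.205) without control replicate 2. Without control replicate 3 the control clone was also called above the parental cells (0.49, adjusted p 0.0055, against 0.31 and 0.197 with it). Without control replicate 2 this difference was 0.11 (adjusted p 0.514). Against the parental cells the knockout clone differed by -0.08 (SE 0.16, adjusted p 0.746). The median of chromosome 16 was lower in the knockout clone, at -0.35 and -0.29 over 403 tested genes. Of these, 46.7% and 37.5% were called lower, and 25 and 17 genes higher. Of all tested genes 24.2% and 18.3% were called lower. Relative to these medians Nectin3 was at -0.04 and 0.22. The part of this shift in the Nectin3 values was not tested.

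Icam1 fell in the knockout clone with little spread between libraries. Icam1 (ENSMUSG00000037405, chr9:21015985-21028817, plus strand) was at 17.2, 17.5 and 17.0 CPM in knockout libraries. It was at 47.7, 47.7 and 44.6 CPM in control libraries and at 41.9, 40.8 and 44.2 CPM in parental libraries. The knockout libraries were far below all others, and the control libraries were slightly above the parental ones. The log2 difference was -1.44 (SE 0.08, adjusted p 2.66e-06) versus the control clone, a fold of 2.71. Against the parental cells it was -1.30 (SE 0.08, adjusted p 7.81e-06), a fold of 2.45. Between control clone and parental cells it was 0.14 (SE 0.07, adjusted p 0.2). Both knockout calls held in all 17 alternatives, between -1.47 and -1.40 and between -1.32 and -1.26.

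Icam1 lies on chromosome 9, as Nectin1 does, and its neighbourhood was lower as well. The 5 tested genes on either side had medians of -0.69 and -0.63. Within 1.5 Mb, 53 of 65 other tested genes were called lower against the control clone, none higher. Against the parental cells 48 were called lower and 1 higher. Of all tested genes 24.2% and 18.3% were called lower in these comparisons. Relative to the median of its chromosome, Icam1 was at -0.91 and -0.76 on the log2 scale. On chromosome 9, 80 genes (10.7%) were at least as low as Icam1 in both comparisons. Icam4, the next tested gene and also a ligand of leukocyte integrins, fell from 2.64 and 1.88 CPM in the control and parental cells to 0.607 CPM (log2 fold change -2.13, SE 0.36, adjusted p 0.00125, and -1.63, SE 0.36, adjusted p 0.00831). The part of the chromosome-wide shift in the Icam1 result was not tested. An antisense gene, Gm47079, shares 511 exon bases with Icam1, whose exons cover 4360 bases. The strand setting of the counting is not given in the sources used here, so reads within the shared bases cannot be told apart.

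Clec2d was lower in the knockout clone, at low counts. Clec2d (ENSMUSG00000030157, chr6:129180615-129186534, plus strand) had 26, 31 and 41 counts in the knockout libraries (1.27, 1.73 and 2.39 CPM). The control libraries held 107, 47 and 80 counts (4.67, 2.80 and 4.20 CPM) and the parental libraries 72, 79 and 56 counts (3.47, 4.66 and 3.30 CPM). All knockout libraries were below all others. Clec2d differed by a log2 fold change of -1.13 (SE 0.29, adjusted p 0.0117) versus the control clone and -1.09 (SE 0.29, adjusted p 0.0196) versus the parental cells, and 0.04 (adjusted p 0.936) between control clone and parental cells. The first call was lost without knockout replicate 1 (-0.91, adjusted p 0.0536), and the second without knockout replicate 1 (-0.88, adjusted p 0.0809), knockout replicate 2 (-1.06, adjusted p 0.0648) or parental replicate 2 (-0.92, adjusted p 0.081). Of the other genes of its family, Clec2f alone was tested, with no call in any comparison.

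**Figure D4:**
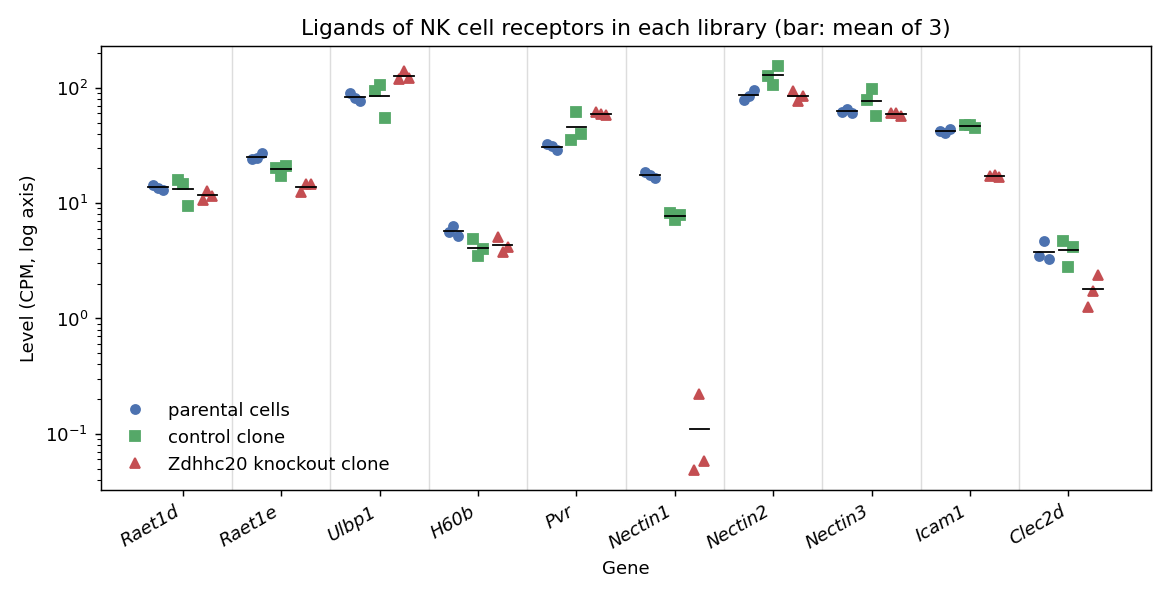
CPM of each ligand gene in each library on a log scale, with 3 libraries per group and a bar at each mean. Knockout libraries lie below all others in Nectin1, Icam1, Raet1e and Clec2d and above all others in Ulbp1. The share of all tested genes that separate in this way was not counted. Of all tested genes 13.4% were called lower and 8.19% higher against both other groups. Control libraries are the most spread in Ulbp1, Pvr and Nectin3.

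Compared per kb of exon, Nectin2 was the most abundant ligand RNA in every group, at 24.4 ± 2.54, 36.9 ± 6.86 and 24.7 ± 2.48 CPM per kb in the knockout, control and parental cells (mean, SD, n = 3). In the parental cells Ulbp1 (12.4), Raet1e (11.7), Icam1 (9.71), Raet1d (9.53), Pvr (5.04), Nectin3 (4.91), H60b (4.71), Clec2d (3.14) and Nectin1 (3.12 CPM per kb) followed. Neighbours in that order overlapped between libraries for Ulbp1 and Raet1e, for Icam1 and Raet1d, for Pvr, Nectin3 and H60b, and for Clec2d and Nectin1. In the knockout clone the order was Ulbp1 (18.8), Pvr (9.75), Raet1d (8.14), Raet1e (6.45), Nectin3 (4.65), Icam1 (3.95), H60b (3.59), Clec2d (1.48) and Nectin1 (0.0195 CPM per kb), with overlap between Icam1 and H60b alone. Pvr thus stood above both Raet1 genes there and below them in the parental cells, and Icam1 stood below them there and between them in the parental cells. In the control clone every gene from Ulbp1 (12.6) through Icam1 (10.7), Raet1d (9.22), Raet1e (9.07) and Pvr (7.42) to Nectin3 (6.07 CPM per kb) overlapped with the next, and Nectin1 (1.38 CPM per kb) was again last.

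Other ligands of NK cell receptors moved in the knockout clone in both directions. Of 8 tested genes in a list of SLAM, cadherin and other ligands, 5 were lower and 1 higher against each of the other groups, with medians of -0.66 and -0.62. Of all tested genes, 24.2% were lower and 18.7% higher against the control clone, and 18.3% lower and 13.1% higher against the parental cells. Vcam1, which binds the integrin VLA on lymphocytes, was at 10.2, 9.57 and 12.9 CPM in knockout libraries, at 183, 99.5 and 149.6 CPM in control libraries and at 107, 131 and 156 CPM in parental libraries. The fitted log2 difference was -3.73 (SE 0.25, adjusted p 9.6e-06) and -3.60 (SE 0.25, adjusted p 2.2e-05). Il15, the cytokine that sustains NK cells, was at a mean of 0.904 CPM in the knockout clone against 2.78 and 4.01 CPM (-1.63, adjusted p 0.00662, and -2.14, adjusted p 0.00234). Of 4 MHC class I genes, which engage inhibitory receptors, H2-K1 and H2-T23 were lower and B2m higher against both groups. Among 7 tested proteases and helpers of ligand shedding, 5 were lower and 1 higher against the control clone and 3 lower and 1 higher against the parental cells, to be read against the same shares of all genes. Timp3, an inhibitor of the Adam proteases, averaged 2.91 CPM in knockout, 50.3 CPM in control and 10.4 CPM in parental cells, so the control clone was itself above its line (2.27, adjusted p 2.3e-05). Of the other nectin-like molecules and LFA ligands, 2 of 3 tested genes were lower against both groups, Cadm1 and Icam4, both on chromosome 9. Of all tested genes 13.4% were lower against both. Cadm1 differed by -0.32 (adjusted p 0.0269) and -0.44 (adjusted p 0.00899), less than the chromosome 9 median of -0.53 in each comparison.

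Some cell type markers were called in the same comparisons as the ligands. The summed level of 7 ductal epithelial markers was 4320 to 4450 CPM in knockout libraries, 7010 to 9380 CPM in control libraries and 6700 to 8170 CPM in parental libraries, with 5 and 4 of the 7 called lower against these groups and Epcam higher, beside 24.2% and 18.3% of all genes called lower. Sox9 was called in neither comparison, and Krt7 was not called against the parental cells (0.09, adjusted p 0.578). Krt19 fell from means of 1491 and 1141 CPM to 172 CPM (-3.12, adjusted p 8.76e-05, and -2.73, adjusted p 0.000278). Cd14, the one leukocyte marker tested, averaged 18.1, 31.0 and 50.1 CPM in knockout, control and parental cells. It was called lower in the edited clone (-0.78, adjusted p 0.00515, and -1.47, adjusted p 0.000293) and in the control clone versus parental cells (-0.69, adjusted p 0.0175). Cela1, an acinar marker, averaged 1.26, 5.75 and 2.06 CPM, with calls of -2.19 (adjusted p 0.000595) for knockout versus control clone and 1.49 (adjusted p 0.00864) for control clone versus parental cells. Pdgfra, the one fibroblast marker tested, was at 0.703, 1.68 and 2.94 CPM, lower in the knockout clone than in both other groups (-1.24, adjusted p 0.0239, and -2.04, adjusted p 0.00281). Of 16 receptor and effector genes of NK cells, 9 had a count in any library and 3 were tested; Itgb2, a chain of LFA, was at 0.222, 1.88 and 0.833 CPM in these groups. The part of these markers in the ligand results was not tested. In bulk RNA, fewer cells with a transcript and less of it per cell cannot be told apart.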

How the data were processed

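The authors deposited expected counts per gene (RSEM estimates, all whole numbers), 1 column per library, and all columns were used. Per the submitters' processing notes, RSEM 1.3.0, STAR 2.5.2, DESeq2 1.10.1 and build GRCm38 were used, with no order given; the annotation release and strand setting are not given in the sources used here. Reads that fit more than 1 gene are shared out by RSEM's model, so values of near copies are uncertain. Per the labels' protocols, libraries were made with a KAPA mRNA HyperPrep kit from total RNA, and the design text names the replicates biological. The labels give no sequencing batch.

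The members, gene lists and tests were chosen with earlier results of these data known. Symbols and positions came from GENCODE M21 (build GRCm38), which matched all 10 members. Counts were tested with edgeR 4.0.16 in R 4.3.3 (glmQLFTest, filterByExpr with a minimum count of 10 and total of 15, TMM, group as the only term, all 9 libraries in 1 fit) and called at an adjusted p under 0.05. The SE is the unshrunken log2 fold change over the square root of F. CPM uses TMM-scaled totals and CPM per kb the union exon length; values are given by library. The procedure was tested on simulated data. Other genes were named where they were called against both groups with a log2 fold change of 1 or more in size and a mean of 1 CPM where highest, with Zdhhc20; further names, and the genes beside Nectin1 and Icam1, are for context. Alternatives were DESeq2 1.42.0 (size factors or test), total counts, no filter, a mean of 5 CPM, limma 3.58.1 (voom), the replicate block, a fit of 2 groups alone, leaving out each library, a log2 fold change of 1 or more in size, and the summed Raet1 pair. Libraries of a group differed beyond sampling noise (chi-square per gene of at least 5.00).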

Additional observations from a re-analysis of the deposited data

How the results depend on the processing

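Of 510 values of the 30 member results under alternatives, 445 kept their direction and side of the threshold, 36 lost a call, 12 gained one and 17 changed sign. The 17 were all uncalled: H60b, knockout against control (-0.045 without knockout replicate 1, -0.025 without control replicate 2, up to 0.228 without control replicate 1); Nectin2, knockout against parental (0.054 without knockout replicate 2, 0.061 without parental replicate 3, down to -0.097 without knockout replicate 1); Raet1d, control against parental (0.149 without control replicate 3, down to -0.196 without control replicate 1). For control against parental, Ulbp1 gave -0.031 (total counts), -0.038 (voom), -0.02 (replicate block) and -0.06, -0.178, -0.01 and -0.051 (without control replicate 1 or 2 or parental replicate 2 or 3; 0.253 without control replicate 3), and Clec2d gave -0.009 (total counts) and -0.117, -0.012, -0.035 and -0.064 (without control replicate 1 or 3 or parental replicate 1 or 3; 0.222 without control replicate 2). With a fold threshold of 1 on the log2 scale, the counts of members called in the 3 comparisons became 3, 3 and 1, and of all genes 1843, 1392 and 851. Fitting only the groups compared gave 6840 genes for knockout against parental and 1525 for control against parental. With 1 library left out, members called were 4 to 8, 4 to 6 and 1 to 5, and all genes 4301 to 7204, 2515 to 5693 and 1472 to 4102. The cause was not tested. With total counts, 61.2% rather than 51.3% of the calls of control against parental were lower. Other scalings shifted the median of all genes by at most 0.047.

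Same-numbered libraries showed no clear shared deviation (9 pairs, r from -0.134 to 0.212, 1 over 0.1). Pairs with different numbers spread from -0.301 to 0.252. With 3 libraries per group, these values cannot decide whether the numbers pair the samples. The replicate block gave 6, 6 and 2 members and 5528, 3941 and 2492 genes. H60b and Clec2d had no value at a mean of 5 CPM. The 6 counts of Nectin1 in the knockout clone limit its fold.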

Other observations

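Of the receptor genes of NK cells, which had been listed as genes a carcinoma line should lack, 2 were above 4 CPM on average in every group; both were picked after their values were seen. Tigit, the inhibitory receptor that binds Pvr, was at 27.3, 26.4 and 31.1 CPM in knockout libraries. It was at 12.4, 39.0 and 17.5 CPM in control libraries and at 11.6, 9.67 and 5.65 CPM in parental libraries. Every library of both clones was above every parental library, and control replicate 2 was the highest of all. The log2 fold change (edgeR quasi-likelihood test) was 1.65 (SE 0.40, adjusted p 0.0123) for the knockout clone and 1.35 (adjusted p 0.0394) for the control clone, each versus parental cells, and 0.31 (SE 0.38, adjusted p 0.542) between the clones. Klrc1, a subunit of the NKG2 receptors of Qa-1, was at means of 6.43, 4.59 and 8.14 CPM in the knockout, control and parental cells, with 1 called difference, the control clone below the parental cells (-0.82, adjusted p 0.0266). Klrd1, the partner chain of Klrc1, did not pass the filter on low counts.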
